A study of Mus musculus with 3 samples.

Results

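The 4 Hox gene clusters of the mouse were examined for called peaks of Notch2 in the embryonic kidney. Members were all peaks whose centre lay in 1 of 4 windows of the mm9 genome build: HoxA on chromosome 6 from 52.08 to 52.25 Mb, HoxB on chromosome 11 from 96.03 to 96.26 Mb, HoxC on chromosome 15 from 102.73 to 102.89 Mb and HoxD on chromosome 2 from 74.48 to 74.63 Mb. The windows held 85 of the 28651 peaks of replicate 1 and 33 of the 12585 peaks of replicate 2. The clusters were chosen by their numbers of peaks in both lists, so numbers, positions, widths and overlaps are given as descriptions and no test was run on them. Intervals cover counting error only, and neighbouring peaks are not independent.

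Whole kidneys of stage E16.5 were crosslinked and immunoprecipitated with a Notch2 antibody from Cell Signaling Technology, in 2 replicate samples that the labels number 1 and 2. A further input sample, DNA of the same tissue and stage without immunoprecipitation, was not analysed here. The labels name no strain, genotype or treatment, and the origin of the replicates from 1 or several litters is not stated, so differences between them may be technical. The tissue is a mixture of nephron progenitors, tubules, ureteric epithelium, stroma and vessels, so the cells that gave rise to a peak cannot be told apart, and a peak list holds no measure against which the tissue label can be checked. Each list gave a position for each peak, with no height or read count, and the sequencing depth is unknown.

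Hox genes encode homeodomain transcription factors that give cells their position along the body axis. They lie in 4 clusters and are numbered 1 to 13 by paralog group, and low-numbered genes are generally active further to the front of the embryo than high-numbered ones. Notch2 is a receptor whose intracellular part, once cleaved, enters the nucleus and acts through the DNA-binding protein RBPJ. In the kidney the Hox11 paralogs Hoxa11, Hoxc11 and Hoxd11 are needed in the metanephric mesenchyme for outgrowth of the ureteric bud, the Hox10 paralogs Hoxa10, Hoxc10 and Hoxd10 act in the stroma, and Hoxb7 is active in the Wolffian duct and the ureteric bud. Among the 38 Hox genes considered, 7 belong to groups 1 to 3 (anterior), 15 to groups 4 to 8 (central) and 16 to groups 9 to 13 (posterior).

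No gene positions of mm9 were used here, so peaks were not assigned to single Hox genes. The order of the genes was taken from the RefSeq gene table of GRCm38, and the same direction was taken to hold in mm9. In that table HoxA begins at its lowest coordinate with low-numbered genes and ends with Hoxa13, a gene of the distal limb and the genital tubercle, followed by Evx1, a homeobox gene. The other clusters run the opposite way. HoxB begins with Hoxb13, a gene of the tail bud and prostate, after Ttll6, and ends with Hoxb1, a gene of the hindbrain, before Skap1. HoxC begins with Hoxc13, a gene of hair and nails, after Calcoco1, and ends with Hoxc4, before Smug1. HoxD begins with Hoxd13, also a gene of the limb and the genital tubercle, after the homeobox gene Evx2, and ends with Hoxd1, before Mtx2. The end of each cluster that holds its group 13 gene is called the Hox13 side below, and the opposite end the anterior side.

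The sequence at the starts of Hox genes is shown for the letters that RBPJ is known to bind. RefSeq promoters of GRCm38.p6, from 250 bases before to 50 bases after a gene's start, were found for 22 of the 38 Hox genes and numbered 24, since Hoxa10 and Hoxd11 had more than 1. In HoxB they covered Hoxb1, Hoxb4 and Hoxb8 alone, and in HoxC Hoxc4 alone. The promoter values below therefore rest mainly on HoxA and HoxD. The RBPJ core TGGGAA, searched on both strands, occurred in 5 of the 24 (20.8%, 95% Wilson interval 9.24 to 40.5%), against 25.6% of all 32851 promoters of the same length. The longer GTGGGAA, which contains that core, occurred in 1 of the 24 (4.17%, 0.739 to 20.2%), against 6.38% of all. The 6 cores in Hox promoters are written here in the direction in which they read TGGGAA, with that core in capitals.
Hoxa3: gtgagacctgTGGGAAggagac
Hoxa6: cggcggccaaTGGGAAagagcg
Hoxa9: aaaaggggaaTGGGAAggaagg
Hoxa13: cgggtggggcTGGGAAcacagg
Hoxd3, nearer the start: ggtgaggctcTGGGAAagcaga
Hoxd3, further from the start: caaattcgccTGGGAAatcagg
Those of Hoxa3 and Hoxa9 lay on the strand of the gene and the other four on the opposite strand. The Hoxa3 core began 38 bases after the listed start of that gene, and the Hoxd3 cores 54 and 85 bases before theirs. Hoxa3 and Hoxd3 are paralogs that act in the pharyngeal region and the neck. The whole Hoxa3 promoter, the single one with GTGGGAA, is chr6:52213018-52213317 on the minus strand of GRCm38.p6. In that build this listed start lies between the promoters of Hoxa6 and Hoxa7, not beside that of Hoxa2 at the anterior end. The coordinate cannot be set beside the mm9 positions of the peaks. The promoter is printed with GTGGGAA in capitals.
Hoxa3 promoter: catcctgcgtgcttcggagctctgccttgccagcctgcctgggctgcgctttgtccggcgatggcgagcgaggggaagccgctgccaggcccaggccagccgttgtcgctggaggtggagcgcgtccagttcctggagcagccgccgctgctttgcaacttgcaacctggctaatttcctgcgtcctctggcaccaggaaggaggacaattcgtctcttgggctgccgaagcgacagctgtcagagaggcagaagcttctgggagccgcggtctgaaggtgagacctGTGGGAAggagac
Hox promoters had a median GC content of 57.7% and a median of 14.5 CpG dinucleotides, against 52.7% and 7 over all promoters. A match of letters is no evidence of a bound site, and none of these sites was placed relative to a peak.

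All 4 clusters held more peaks per Mb than the 500 kb on either side of them, in both replicates. HoxA was the densest. It held 29 peaks in replicate 1 (171 per Mb, against 34.0 in its flanks) and 16 in replicate 2 (94.1 per Mb, against 21.0). The density was 5.02 times that of the flanks in replicate 1 (95% exact interval 2.95 to 8.48) and 4.48 times in replicate 2 (2.19 to 9.01). HoxD followed with 19 peaks in replicate 1 (127 per Mb, 4.52 times its flanks, 2.39 to 8.39) and 6 in replicate 2 (40 per Mb, 2.86 times, 0.900 to 7.91). HoxC held 16 peaks in replicate 1 (100 per Mb, 4.17 times its flanks, 2.07 to 8.18) and 4 in replicate 2 (25 per Mb, 2.50 times, 0.572 to 8.67). HoxB, the longest window at 230 kb, held 21 peaks in replicate 1 (91.3 per Mb, 2.61 times its flanks, 1.44 to 4.61) and 7 in replicate 2 (30.4 per Mb, 1.52 times, 0.544 to 3.75). The intervals of HoxB, HoxC and HoxD in replicate 2, which rest on 4 to 7 peaks, included 1. With flanks of 1000 kb their ratios were 2.90 (1.04 to 7.08), 5.0 (1.14 to 17.3) and 3.20 (1.07 to 7.99), so the ratios of HoxB and HoxC depended on the length of the flanks. With the clusters added together, the density was 3.96 times that of the flanks in replicate 1 (2.96 to 5.27) and 2.86 times in replicate 2 (1.82 to 4.41).

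**Figure D1:**
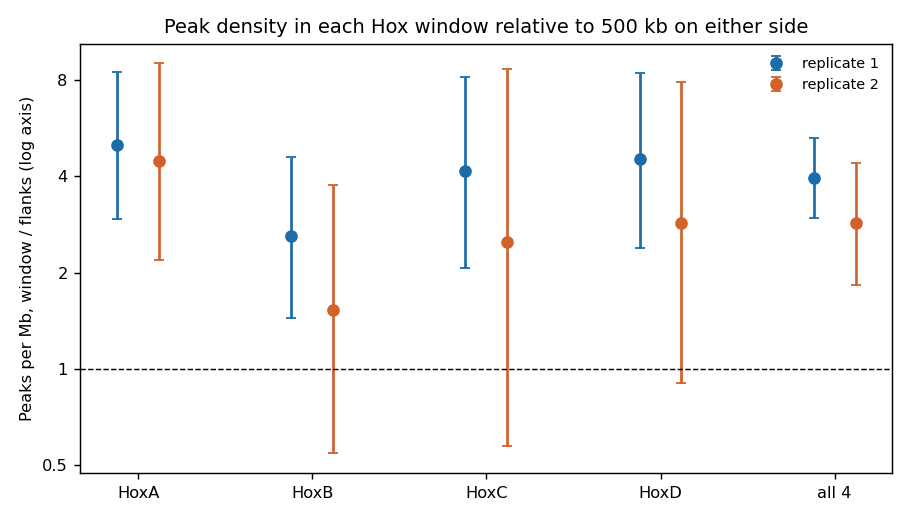
Peaks per Mb in each Hox window divided by peaks per Mb in the 500 kb on either side, on a log axis, for each replicate and for the 4 windows added together. Bars are 95% exact intervals for counting error. All points lie above 1, from 1.52 (HoxB, replicate 2) to 5.02 (HoxA, replicate 1), and the intervals of HoxB, HoxC and HoxD in replicate 2 cross it.

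Over the whole genome the lists held 11.2 and 4.92 peaks per Mb in replicates 1 and 2, less than the flanks of the clusters, with 30.2 and 16.2 per Mb. Peaks covered 18.3% of the HoxA window in replicate 1, 14.0% of HoxD, 10.2% of HoxB and 9.41% of HoxC, against 0.853% of the genome. In replicate 2 they covered 6.61, 3.94, 2.44 and 1.44% of these windows, against 0.329% of the genome. The covered shares of the flanks, in the same order, were 3.21, 2.43, 3.12 and 1.86% in replicate 1. In replicate 2 those of the flanks were 1.41, 0.947, 1.55 and 0.690%. Among the windows, HoxA ranked highest and HoxC lowest by covered share in both replicates. When the genome was divided into tiles of the length of a window, a median tile held 1 peak or, for the length of HoxB, 2 peaks in replicate 1, and none in replicate 2. No tile of 15510 held as many replicate 1 peaks as the HoxA window, and 2 held as many replicate 2 peaks. Tiles were not aligned with the windows, and those over the Hox windows were kept. The HoxA window fell across tiles that divided its own peaks, and 1 of the 2 tiles for replicate 2 overlapped it. For HoxD, HoxC and HoxB, the shares of tiles with as many peaks were 0.0341, 0.0971 and 0.0698% in replicate 1 and 1.23, 4.96 and 1.99% in replicate 2. The replicate 2 numbers of HoxB, HoxC and HoxD were thus reached in 217 to 817 tiles each.

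The ratio of replicate 1 to replicate 2 peaks was 1.81 in HoxA (95% exact interval 0.952 to 3.57), 3.0 in HoxB (1.23 to 8.35), 4.0 in HoxC (1.29 to 16.4) and 3.17 in HoxD (1.22 to 9.69). Each interval included the ratio of the whole lists, 2.28. With 7, 4 and 6 replicate 2 peaks, the intervals of HoxB, HoxC and HoxD are wide and could not show moderate departures from it.

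Peaks were unevenly placed along the clusters. Each window was divided into 3 equal parts, and these were turned so that the Hox13 side came first. In the part on the Hox13 side the 4 clusters held 12 peaks in replicate 1, of which 6 lay in HoxA and 6 in HoxD, and 0 in replicate 2. The middle parts held 48 and 19 peaks, and the anterior parts 25 and 14. HoxA had 17 of its 29 replicate 1 peaks in the middle part, a density of 300 per Mb. Of the replicate 1 peaks, 14 of 48 in the middle parts and 8 of 25 in the anterior parts overlapped a replicate 2 peak, and those on the Hox13 side had none there to overlap. The clusters differed, and in replicate 1 HoxA had 6 peaks in each outer part and HoxD had 6 on the Hox13 side and 3 on the anterior side. Counted without the parts, replicate 1 had peaks beyond the outermost replicate 2 peak on the Hox13 side in HoxA (6), HoxC (11) and HoxD (8) and none in HoxB. On the anterior side it had 6 such peaks in HoxB, 1 in HoxD and none in HoxA and HoxC. The parts depend on where the windows end, and the HoxB and HoxC windows began with long stretches without peaks on the Hox13 side, 90.7 and 55.0 kb to the centre of the first replicate 1 peak.

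The flanks were also uneven, in a comparison made after the values were seen. The flank on the anterior side held more peaks than the flank on the Hox13 side in 4 of 4 clusters in both replicates. Over the 4 clusters these flanks held 92 and 29 peaks in replicate 1 and 51 and 14 in replicate 2. HoxB had the most uneven flanks, with 30 and 5 peaks in replicate 1 and 19 and 1 in replicate 2, against 23 and 11 and 15 and 6 at HoxA. At HoxC the numbers were 18 and 6 in replicate 1 and 7 and 3 in replicate 2, and at HoxD they were 21 and 7 and 10 and 4. The numbers of genes and the accessibility of chromatin in these flanks were not measured here, and their part in the contrast was not tested.

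**Figure D2:**
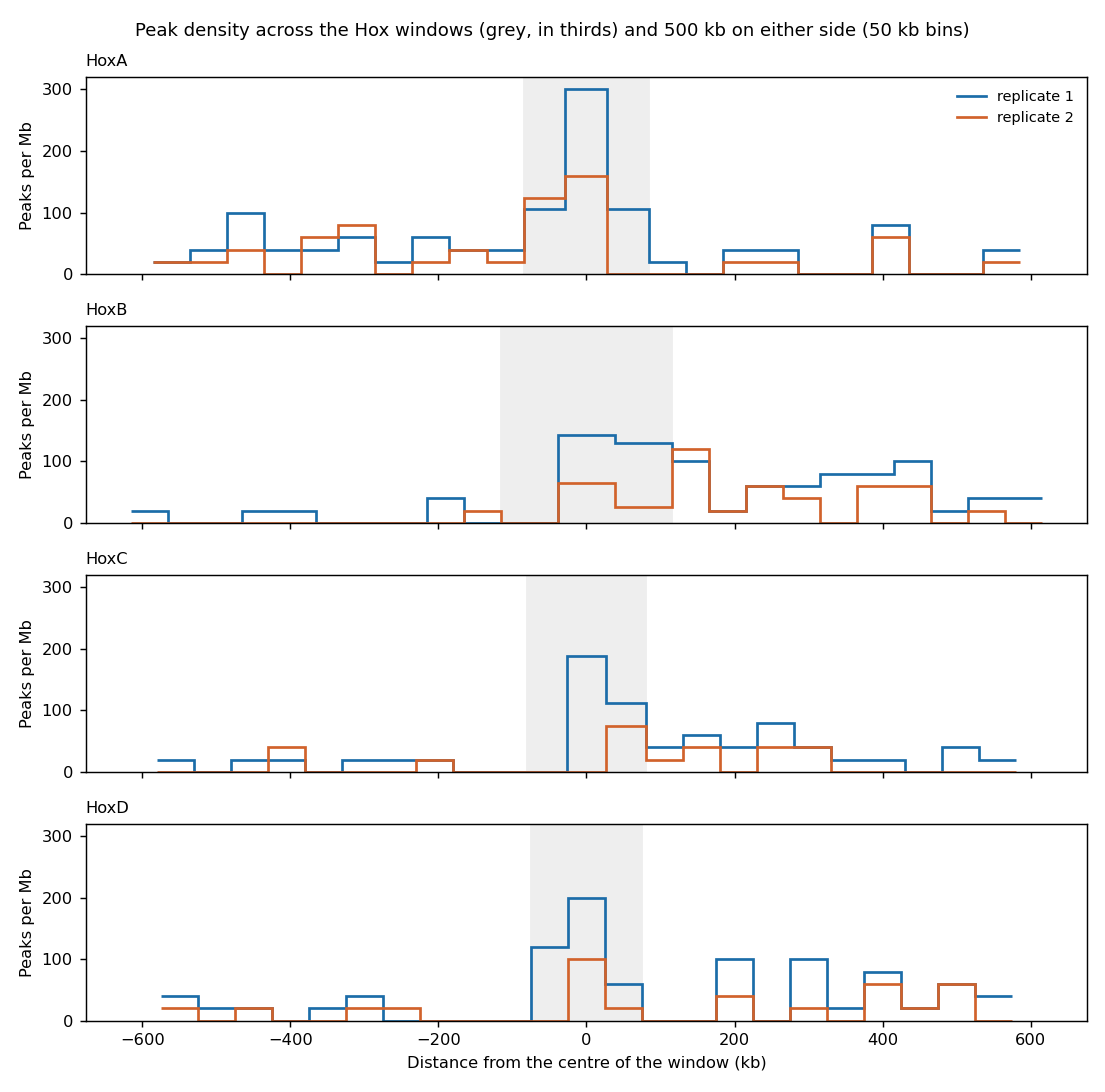
Peaks per Mb in 50 kb bins of the flanks and in 3 equal parts of each window (grey), against distance from the window's centre in kb, for both replicates. The middle part of HoxA reaches 300 peaks per Mb in replicate 1, and the right-hand, anterior flank of HoxB holds 30 and 19 peaks against 5 and 1 in its left-hand flank.

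Peaks just inside and just outside the window edges show how far the numbers depend on those edges. On the anterior side of HoxC, the nearest replicate 1 peak inside the window lay 24.2 kb from the edge and the nearest outside it 1.57 kb from it. For HoxB on that side these distances were 25.9 and 5.86 kb. At HoxD the nearest replicate 1 peaks outside lay 206 kb beyond the edge on the Hox13 side and 108 kb beyond the anterior one. At HoxA they lay 6.15 kb beyond the edge on the Hox13 side and 26.1 kb beyond the anterior one.

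HoxA held the most peaks found in both replicates, with 11 of 29 replicate 1 peaks overlapping a replicate 2 peak by at least 1 bp. They were spread over 81.2 kb of the window, on its anterior side and in its middle. The highest in list order was chr6:52174731-52177309, the 68th peak of replicate 1, with its counterpart chr6:52175933-52177214 at place 164 of replicate 2. The replicate 1 peak was 2579 bp wide and held the whole of its counterpart of 1282 bp. A pair of wide replicate 1 peaks lay further towards the anterior end, chr6:52121352-52123371 (2020 bp, place 525) and chr6:52126129-52128685 (2557 bp, place 366). The first of them overlapped chr6:52122629-52123385 of replicate 2 (757 bp, place 995), and the second overlapped peaks of replicate 2 at both of its ends, chr6:52125585-52126341 (757 bp, place 515) and chr6:52128227-52128726 (500 bp, place 8328). Their centres lay 1444 and 1070 bp from that of the replicate 1 peak. The widest HoxA peak, chr6:52189155-52191922 (2768 bp, place 1201 in replicate 1), contained chr6:52190439-52191184 of replicate 2 (746 bp, place 7791).

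The remaining HoxA pairs were smaller, with replicate 1 widths of 500 to 1499 bp. By position they began with chr6:52110760-52111548, the replicate 1 peak nearest the anterior edge, and chr6:52133118-52133617, a 500 bp peak late in replicate 1 (place 16450) whose counterpart of 642 bp stood at place 2140 of replicate 2. In the middle of the window followed chr6:52150620-52151372, with its centre at the same base in both replicates, chr6:52154072-52155570, chr6:52168411-52169079, chr6:52171467-52172668 and chr6:52182813-52184130. Their places in replicate 1 ran from 906 to 26485. Towards Hoxa13, replicate 1 had 6 peaks beyond the last replicate 2 peak, and the widest of them, chr6:52197383-52199570 (2188 bp), was also the widest HoxA peak without a counterpart. It lay 6.20 kb from the nearest replicate 2 peak. In replicate 2 the widest HoxA peak without a counterpart was chr6:52180388-52181146 (759 bp, place 527), which began 0.114 kb after the end of the replicate 1 peak chr6:52178858-52180273.

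HoxB had 4 pairs of overlapping peaks. The first in list order in both replicates was chr11:96180295-96181464, at place 229 of replicate 1, with chr11:96180240-96181207 at place 64 of replicate 2. It measured 1170 and 968 bp. The next in the list of replicate 2, chr11:96195690-96197060 and chr11:96195699-96197323, measured 1371 and 1625 bp. It was the single HoxB pair in which the replicate 2 peak was the wider one. The other pairs were narrow in replicate 2, at 500 bp each: chr11:96167899-96168683 with its centre 5.5 bp from that of its counterpart, and chr11:96120379-96121010, the peak nearest the Hox13 side in both replicates, with its centre 9 bp away. Between this peak and the next replicate 2 peak lay 47.1 kb without a replicate 2 peak, in which replicate 1 had 7 peaks. They included the widest Hox peaks without a counterpart in either list, chr11:96155733-96158914 (3182 bp, place 638) and chr11:96159535-96162258 (2724 bp, place 1283), 9.13 and 5.79 kb from the nearest replicate 2 peak. In replicate 2 the widest HoxB peak without a counterpart was chr11:96171701-96172480 (780 bp), 1.59 kb from a replicate 1 peak.

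HoxC had 2 pairs, side by side near its anterior end. They were chr15:102863119-102864002 with chr15:102863154-102863794, of 884 and 641 bp, and chr15:102865471-102866223 with chr15:102865546-102866204, of 753 and 659 bp. The second pair was the first HoxC peak of replicate 2 in list order, at place 1185. All 4 replicate 2 peaks lay within 21.4 kb on the anterior side, the side of Hoxc4, whereas the 16 replicate 1 peaks spread over 81.5 kb. The first HoxC peak of replicate 1 in list order was chr15:102810528-102812308 (1781 bp, place 2651), and the widest was chr15:102836444-102838248 (1805 bp, place 5187). Neither overlapped a replicate 2 peak, and these lay 32.5 and 6.54 kb away. The 2 replicate 2 peaks of HoxC without a counterpart were both 500 bp wide, chr15:102844785-102845284 and chr15:102854529-102855028.

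HoxD held the Hox peak placed first in both lists. It was chr2:74541647-74542997 in replicate 1 (1351 bp, place 45) and chr2:74541925-74544314 in replicate 2 (2390 bp, place 6), the widest Hox peak of replicate 2. The replicate 2 peak reached 1.32 kb further towards the anterior end. The other pairs were chr2:74538337-74539601 with a 500 bp counterpart, chr2:74559772-74560526, chr2:74570080-74571201 and chr2:74587113-74588379, and the last measured 1267 and 1074 bp. Replicate 2 had 1 further peak in HoxD, chr2:74578621-74579120 (500 bp), 3.33 kb from the nearest replicate 1 peak. Towards Hoxd13, replicate 1 alone had peaks, 6 in the first part of the window, and the widest HoxD peak of that list was among them, chr2:74515776-74518458 (2683 bp, place 3723), 20.1 kb from the nearest replicate 2 peak.

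**Figure D3:**
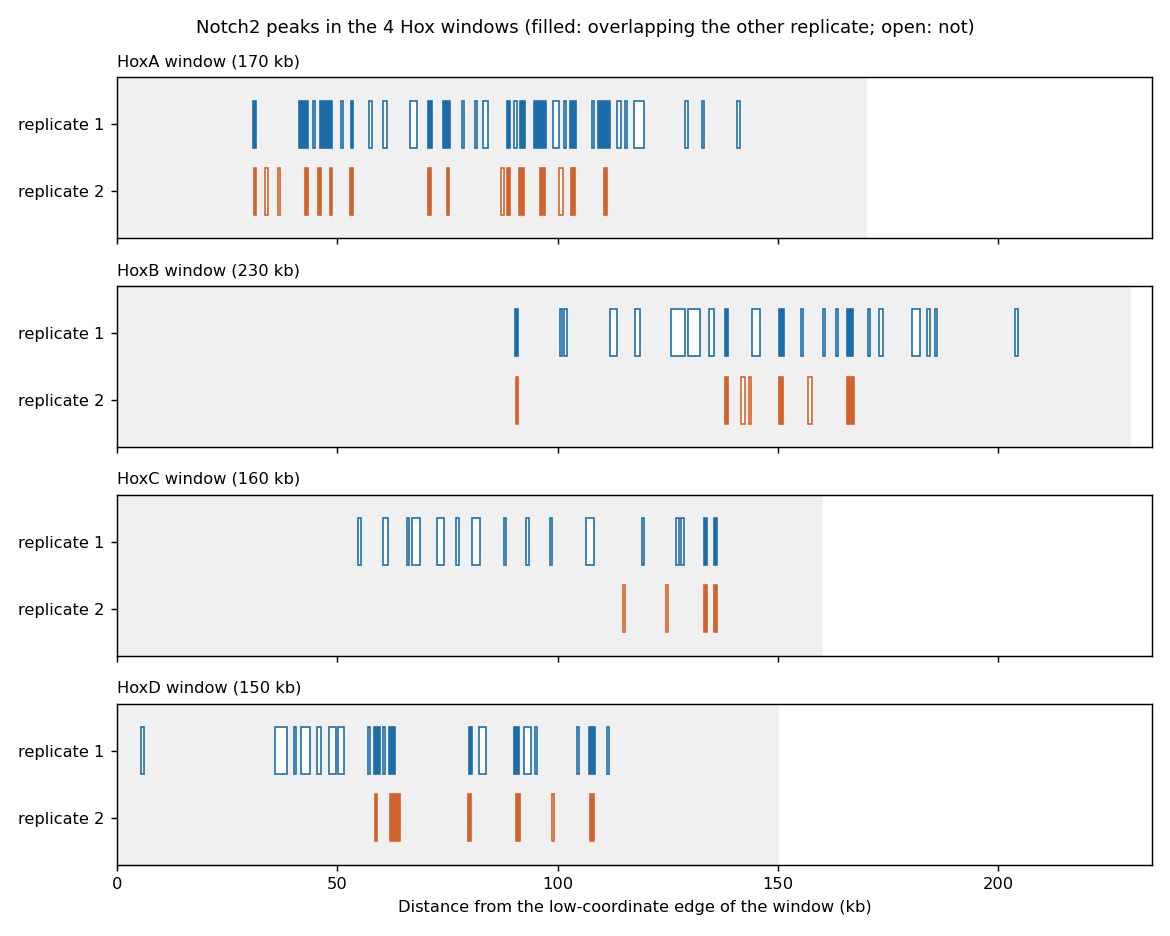
Each Notch2 peak in the 4 Hox windows (grey), drawn to scale against distance from the window's low-coordinate edge in kb, with replicate 1 above replicate 2 and peaks that overlap the other replicate filled. The Hox13 side is at the right for HoxA and at the left for HoxB, HoxC and HoxD, and the outer part on that side holds 6 open replicate 1 peaks each in HoxA and HoxD and no replicate 2 peak.

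The share of Hox peaks found in both replicates was below that of the whole lists, within counting error. Of 85 Hox peaks of replicate 1, 22 overlapped a replicate 2 peak (25.9%, 95% Wilson interval 17.8 to 36.1%), against 33.0% of the whole list and 51 of 121 peaks in the flanks (42.1%, 33.7 to 51.1%). Of 33 Hox peaks of replicate 2, 23 overlapped a replicate 1 peak (69.7%, 52.7 to 82.6%), against 75.5% of the whole list and 52 of 65 in the flanks (80.0%, 68.7 to 87.9%). The intervals of the Hox peaks included the share of the whole list in both replicates. In replicate 1 the share of the flanks, 42.1%, lay above the Hox interval, though the intervals of Hox and flank peaks overlapped. In replicate 2 the Hox interval included the share of the flanks. By cluster, the shares in replicate 1 were 37.9% in HoxA (22.7 to 56.0%), 26.3% in HoxD (11.8 to 48.8%), 19.0% in HoxB (7.67 to 40%) and 12.5% in HoxC (3.50 to 36.0%). In replicate 2 they were 12 of 16, 5 of 6, 4 of 7 and 2 of 4 in the same order. These intervals overlapped, and the clusters could not be ordered by their shares.

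The gap was wider within both classes of list place in replicate 1, which were examined after the values were seen. Among the first 25% of that list, 17 of 36 Hox peaks were shared (47.2%, 95% Wilson interval 32.0 to 63.0%), against 69.2% of the whole class and 32 of 43 peaks in the flanks (74.4%, 59.8 to 85.1%). The interval of the Hox peaks lay below the share of the class. Among the later 75%, 5 of 49 Hox peaks were shared (10.2%, 4.44 to 21.8%), against 21.0% of that class. In the flanks 19 of 78 of these were shared (24.4%). The Hox interval for the later peaks included the share of their class. In the first 25% of replicate 2, 8 of 10 Hox peaks were shared, against 93.3% of the class. In its later 75% the numbers were 15 of 23, against 69.6%. Of the 25 Hox peaks of replicate 1 that measured 500 bp, 1 was shared (4.0%, 0.710 to 19.5%), against 16.2% of all such peaks. Several unshared peaks lay near a peak of the other list without touching it. Of the 10 unshared replicate 2 peaks, 3 lay within 1 kb of a replicate 1 peak and 6 within 2 kb, and their median distance was 1.71 kb. Of the 63 unshared replicate 1 peaks, 6 lay within 1 kb of a replicate 2 peak and 12 within 2 kb, with a median of 6.20 kb and at most 59.4 kb. Where peaks are dense, a near neighbour is found more readily, and these distances have no baseline of their own.

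Hox peaks were often wide. The median width was 789 bp in replicate 1, with quartiles of 500 and 1383 bp, against a median of 637 bp and an upper quartile of 847 bp in the whole list. In replicate 2 the median was 659 bp, with an upper quartile of 780 bp, against 626 and 722 bp in its whole list. Peaks wider than the upper quartile of their list made up 44.7% of the Hox peaks in replicate 1 and 42.4% in replicate 2, against 25% of each list. Peaks of 500 bp, the narrowest width, made up 29.4% of the Hox peaks in replicate 1, against 31.8% of the list and 20.7% of the flank peaks. In replicate 2 they made up 36.4%, against 47.9% of the list and 36.9% of the flank peaks. HoxD had the highest median in replicate 1, 1122 bp, and HoxC the lowest, 665 bp. HoxA and HoxB had 789 and 798 bp. In replicate 2 the medians were 742 bp in HoxB, 726 bp in HoxD, 682 bp in HoxA and 570 bp in HoxC, from 7, 6, 16 and 4 peaks. The order depended on the peaks used, and in the first 50% of the replicate 1 list HoxC had the highest median, 1396 bp, and HoxD the lowest, 1267 bp. Peaks in the flanks had medians of 754 and 635 bp, and the difference from the Hox peaks was smaller than that from the whole lists. Their upper quartiles were 1045 bp in replicate 1 and 788 bp in replicate 2, the latter above that of the Hox peaks. Of the flank peaks, 46 of 121 and 21 of 65 were wider than the upper quartile of their list, against 38 of 85 and 14 of 33 Hox peaks. Much of the width was thus shared with the flanks.

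Shared Hox peaks were wider and stood earlier in the list of replicate 1 than unshared ones. Their median width was 1186 bp against 637 bp, and their median place was at 7.66% of the list against 57.0%. In replicate 2 the widths were 703 and 500 bp, and the median places 34.3 and 29.3%, so the order of the places was the opposite there. The contrast in replicate 1 was not particular to Hox peaks. In its whole list 69.2% of the first 25% were shared, against 21.0% of the later 75%. Of all its peaks wider than the upper quartile 52.5% were shared, against 16.2% of those of 500 bp. A wider peak also meets an overlap of 1 bp more readily. In 19 of 22 pairs replicate 1 had the wider peak, in 3 replicate 2 had it, and the median distance between the centres of a pair was 146 bp. Of the Hox peaks, 20 of 85 in replicate 1 and 8 of 33 in replicate 2 were in the first 10% of their list. The last 25% of the list held 22 of 85 Hox peaks in replicate 1, near the share of all peaks, and 2 of 33 in replicate 2. What the order of the lists stands for is not given in the sources used here.

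**Figure D4:**
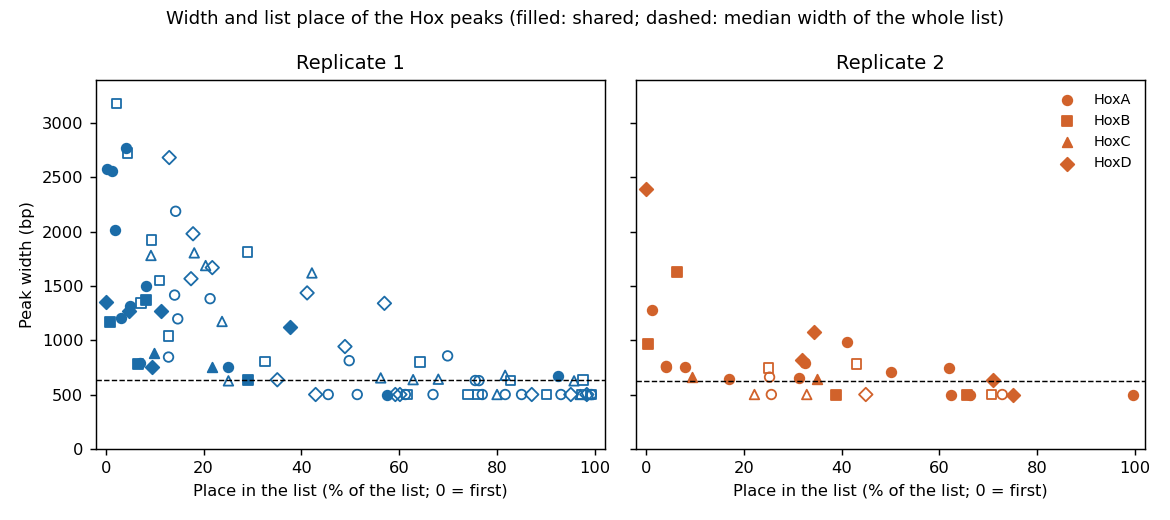
Width in bp of each Hox peak against its place in its list, in percent with the first peak at 0, for replicate 1 and replicate 2, with shared peaks filled and the median width of the whole list dashed. Filled peaks of replicate 1 gather at the early, wide end, with a median of 1186 bp, and the HoxD peak at place 6 is the widest of replicate 2 at 2390 bp.

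Within the clusters peaks followed each other closely. The median distance between neighbouring centres in replicate 1 was 3.03 kb in HoxD, 3.45 kb in HoxA, 4.45 kb in HoxB and 5.22 kb in HoxC. When peaks with edges within 12.5 kb of each other were joined into runs, the HoxB run of replicate 1 (20 peaks over 95.8 kb) and the HoxC run (16 peaks over 81.5 kb) ranked 2 and 3 among 20224 runs of that list by number of peaks, after the run in HoxA with 29. HoxD fell into runs of 10 and 8 peaks, separated by 16.8 kb without a replicate 1 peak. In replicate 2 the largest Hox runs were of 9 and 7 peaks in HoxA, 6 in HoxB, 4 in HoxC and 4 in HoxD. The largest run of that list had 12 peaks and lay elsewhere, and the HoxA run of 9 ranked 4. The HoxB and HoxC runs of that list ranked 20 and 60, the latter with 126 runs of the same size.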

How the data were processed

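Members and comparisons were chosen with earlier results of these data known. The authors deposited 1 peak list per immunoprecipitation, with chromosome, start and end only, called per sample. The submitters' processing notes name Bowtie, SAMtools, HOMER and mm9 alone. How peaks were called, and with which input, is not given in the sources used here. Exactly repeated rows (242 and 480, of which 5 and 2 lay in the Hox windows) were counted once. Positions are counted from 1. A peak belonged to a window by its centre, and was shared if it overlapped a peak of the other list by at least 1 bp. Density ratios have exact binomial intervals and shares 95% Wilson intervals. A deeper or more enriched library yields a longer list, and read depth is unknown. Tiles ran from the first base of each chromosome to its last peak.

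Regions were named by a rule: every overlapping pair, and in each cluster and replicate the widest peak, the first in list order and the widest unshared one. Promoters with GTGGGAA were to be printed. The short core sites, the turning of clusters by gene order and the classes by list place were added after values were seen. Window counts, sharing and runs were tested on simulated data, with known numbers recovered in 20 of 20 lists and sharing and runs equal to those of bedtools. Software was bedtools 2.31.1, scipy 1.17.1 and pandas 2.3.3 under Python 3.11.15, with numpy 2.4.6, and matplotlib 3.10.9 for figures.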

Additional observations from a re-analysis of the deposited data

How the results depend on the processing

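The density of each cluster, and of all 4 together, stayed above that of the flanks in all 80 alternatives (flanks of 250 or 1000 kb, windows widened or narrowed by 10 kb, membership by any overlap, repeated rows counted, the first 50% of each list, peaks wider than 500 bp), at 1.09 to 6.06 times, within the intervals reported. In replicate 2 flanks of 1000 kb raised HoxB to 2.90 and HoxC to 5.0 times, and the intervals then lay above 1, as did that of HoxD with flanks of 250 or 1000 kb or narrowed windows. The clusters were chosen by their peak numbers, and the alternatives reuse the same peaks. These densities are therefore no independent evidence of a higher density. Shares moved with the criterion. With overlap of 50% of both peaks they were 17.6 and 45.5% over all clusters in replicates 1 and 2, 20.7 and 37.5% in HoxA and 15.8 and 50% in HoxD. With centres within 250 bp the replicate 2 shares were 48.5% over all clusters and 43.8% in HoxA. Both criteria are stricter than an overlap of 1 bp. Shares of the whole lists and of the flanks under them are not given here, so these values cannot be set beside the whole-list shares above. With lists of equal number the replicate 1 shares were 43.5% over all clusters, against 55.3% of the whole list so limited, 64.3% in HoxA, 33.3% in HoxB, 25% in HoxC and 41.7% in HoxD. In the first 50% of each list the median width was 1342 bp in replicate 1 and 757 bp in replicate 2 over all clusters, and in replicate 1 it was 1350 bp in HoxA, 1356 bp in HoxB, 1396 bp in HoxC and 1267 bp in HoxD, which turned the order of HoxC and HoxD. Windows widened by 10 kb gave 641 bp for HoxC in replicate 2. At a joining distance of 5 kb the largest runs, shorter by construction, had 18, 8, 7 and 6 peaks in HoxA to HoxD in replicate 1, and 3, 2 and 2 in HoxB, HoxC and HoxD in replicate 2. At 25 kb HoxD had a run of 18 in replicate 1 and HoxA one of 16 in replicate 2. Tiles shifted by 50% of their length included 1 with as many replicate 1 peaks as HoxA, in place of none. That tile covered the HoxA peaks themselves, so it is not another locus. The cause of the other shifts was not tested. Every replicate has 1 list, so leaving out a replicate removes its values and all sharing. No paired analysis was possible because both lists belong to 1 group. Small numbers of peaks, 4 to 7 in HoxB, HoxC and HoxD in replicate 2, limit what can be said of single clusters.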
